A study of Arabidopsis thaliana with 64 samples.

Results

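The genes described here lie around the 5 centromeres of Arabidopsis thaliana. They were chosen by locus number alone: a named probe belonged when its locus fell into AT1G35000-AT1G43999, AT2G06000-AT2G14999, AT3G29000-AT3G43999, AT4G04000-AT4G08999 or AT5G29000-AT5G36999. Of the 13824 probes on the array 6341 carried a gene name, and 232 of these, for 203 genes, lay in the ranges. Chromosome 1 gave 27 probes for 19 genes, chromosome 2 gave 59 for 54, chromosome 3 gave 50 for 44, chromosome 4 gave 51 for 45 and chromosome 5 gave 45 for 41. The other 6109 named probes, for 4958 genes, served for comparison. Each of the 64 arrays set RNA of a line, named for a flowering locus, against RNA of a comparator. The lines CO, FD, FE, FHA, FT, FWA, GI, FCA, FPA, FVE, FY, GAI and SOC1 were compared with wild type (WT) at 12 days, and FLC20 with C24 at 9 days, each on 2 arrays from 8 h days and 2 from 16 h days. For FVE the 16 h days are those of the titles, while the descriptions say short days. FCAVRN1, which names FCA and VRN1, was compared with FCA on 2 arrays and with wild type on 2. FCAVRN2, which names FCA and VRN2, was compared with wild type under 8 h and with FCA under 16 h, on 2 arrays each, all at 12 days. The sources used here name no alleles, no tissue and no pooling of plants, so the tissue could not be checked against markers.

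Around plant centromeres, genes are few and lie among transposable elements, their decayed copies and satellite repeats. Most of this chromatin is kept silent by DNA methylation and by methylation of histone H3, so that loss of methylation can wake transposons and pseudogenes without any change in their sequence. FWA is a homeobox gene that is silent in the wild type plant body because repeats in its promoter are methylated, and fwa lines flower late because the gene is active there. VRN2 is a Polycomb group protein that keeps the flowering repressor FLC silent after cold, and VRN1 is a DNA-binding protein of the same response. FCA belongs to the autonomous pathway, which lowers FLC.

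The ranges hold far more loci than the array sampled. The gene table lists 683, 1575, 1078, 1349 and 796 loci in the ranges of chromosomes 1 to 5, of which 461, 673, 780, 573 and 558 are pseudogenes. On the array, 40 of the 232 probes, for 39 genes, are annotated as pseudogenes, against 51 of the 6109 other named probes. A further 190 probes belong to protein-coding genes, and 2 have no entry in that table. The loci next to the edges of the ranges were AT1G34570 outside and AT1G35320 inside, AT2G05970 and AT2G06000, AT3G28960 and AT3G29000, AT4G03920 and AT4G04090, and AT5G28860 and AT5G29030 at the lower ends. At the upper ends they were AT1G43900 inside and AT1G44000 outside, AT2G14930 and AT2G15020, AT3G43980 and AT3G44190, AT4G08960 and AT4G09040, and AT5G36960 and AT5G37130.

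Values are log2 of the deposited ratio of both channels. The labels do not settle which way the ratio runs. A positive value is likely to mean more RNA in the line than in its comparator, since the descriptions set the line against the comparator and the line is channel 1 of the unswapped arrays. With the sign turned, every rise below would be a fall. Of 992 pairs of arrays from different groups with the same dye orientation, 7 correlated below -0.3, the lowest at -0.461. The 2 arrays of each group have opposite dye orientations, so their values differ in both replicate and orientation. They correlated over all probes between -0.509 and 0.584, and signal over background is unknown. On 6 arrays over 2% of the ratios lay beyond 2-fold, against 0.0868% on the narrowest array. These were FCAVRN2_16h replicate 2, FLC20_8h replicate 1, FPA_8h replicate 1, FWA_16h replicate 2, GAI_8h replicate 1 and GI_8h replicate 1. In such mixed RNA, fewer cells of a type and less RNA per cell cannot be told apart.

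Genes around the centromeres were not moved as a block in any line. Their median log2 ratio lay between -0.02 and 0.02 in all 18 comparisons, that is the 14 single lines and the 4 groups of FCAVRN1 and FCAVRN2. A probe is said to be called, to have risen or to have fallen where the Benjamini-Hochberg adjusted p of limma's test over all probes lay under 0.05. Summed over the 18 comparisons, 64 of 4176 values were called, 28 higher and 36 lower, which is 1.53% against 1.29% for the other named probes. Among the pseudogenes of the ranges the share was 2.22%, among pseudogenes elsewhere 1.20%. The calls fell on 59 probes of 56 genes, of which 5 probes were called in 2 comparisons, and 173 probes were called nowhere. Of the 232 probes 25.4% were called at least once, against 19.6% of the other named probes.

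The calls came from 6 comparisons. In FCAVRN2_16h 29 probes were called (12.5%, where 7.85% of all probes and 8.41% of other named probes were), in FLC20 16 (6.90% against 6.09% and 5.37%) and in FD 11 (4.74% against 5.85% and 5.55%). In GI 3 were called (1.29% against 1.17% and 0.966%), in FY 3 (1.29% against 1.82% and 1.69%) and in FWA 2 (0.862% against 0.543% and 0.507%). The other 12 comparisons called 0 of the 232 by limma. Of all probes they called 0.383% in GAI, 0.253% in FE, 0.0723% in FCA and in FPA, 0.0362% in FHA, 0.0289% in SOC1, 0.0145% in FVE and in FCAVRN1_vs_WT, 0.00723% in FT and in FCAVRN2_8h, and 0% in CO and in FCAVRN1_vs_FCA. At an unadjusted p under 0.05, between 4 (FHA) and 22 (FPA) of the 232 passed in these 12. Here and below, counts at an unadjusted p stand without the share over all probes, so no excess is read from them. The shares lay near the background in 5 of the 6 comparisons with calls and above it in FCAVRN2_16h, where the result rests on 1 array, as described below. With quantile normalization the sum was 16 calls in place of 64.

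**Figure D1:**
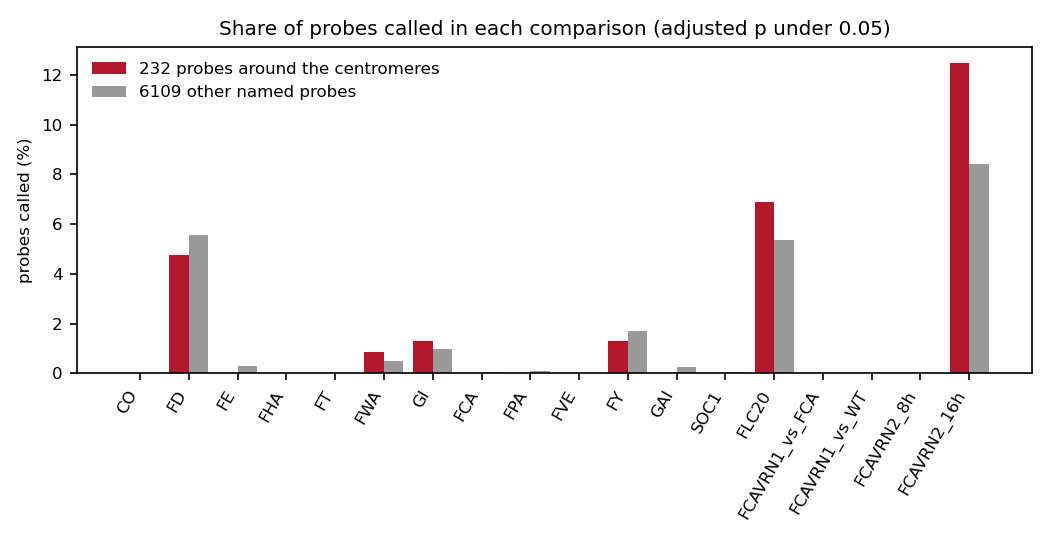
Share of probes called, in percent, in each of the 18 comparisons, for the 232 probes around the centromeres (red) and the 6109 other named probes (grey). The red bar is the taller by the widest margin in FCAVRN2_16h, at 12.5% against 8.41%, and 12 comparisons have no red bar.

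A pseudogene near the centromere of chromosome 3 was the clearest single signal, and it was high in FWA alone among the lines tested. AT3G32240 had log2 ratios of 1.64 and 2.34 on the 8 h arrays of FWA and of 1.94 and 1.79 on the 16 h arrays. All 4 values lay above every one of the 60 other arrays, which ran from -0.33 on GAI_8h replicate 1 to 0.54 on FCAVRN2_16h replicate 2. The fitted log2 ratio in FWA was 1.93 ± 0.08 (standard error, n = 4 arrays), a 3.80-fold difference with an adjusted p of 1.79e-18 from limma. In the other 17 comparisons the fitted log2 ratio lay between -0.11 in FCAVRN2_8h and 0.23 in FCAVRN2_16h, and none was called. The difference between FWA and the average of the other 12 lines with a wild type comparator was itself called, at 1.94 ± 0.09 and an adjusted p of 5.48e-18, where 0.0434% of all probes were. So was the difference between FWA and the mean of both FCAVRN2 groups, at 1.86 ± 0.12 and an adjusted p of 3.4e-13 (0.0723% of all probes). Day length made no called difference in FWA (0% of all probes): for AT3G32240, 16 h minus 8 h was -0.12 ± 0.17.

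The neighbours of AT3G32240 did not share the rise. The nearest named loci with a probe, AT3G31430, AT3G31540 and AT3G32130 below it and AT3G32930 and AT3G32940 above it, had log2 ratios in FWA between -0.15 and 0.01 on 6 probes, none called. The pattern most like that of AT3G32240 over the arrays belonged to an unnamed probe, SP0000122314, which had log2 ratios of 1.01 and 2.75 at 8 h and of 2.94 and 1.73 at 16 h in FWA. Its fitted value in FWA was 2.11 ± 0.14, with an adjusted p of 7.26e-13 from limma. Pearson's r between both probes was 0.911 over 64 arrays and 0.177 over the 60 arrays without FWA, so the likeness rests on the FWA arrays. Spearman's rho was 0.292 and 0.14.

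**Figure D2:**
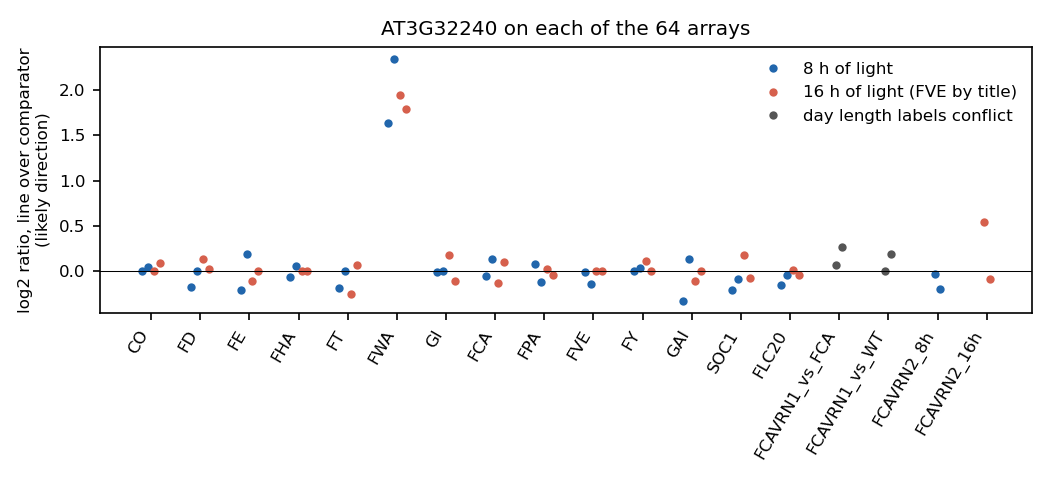
Log2 ratio of AT3G32240 on each of the 64 arrays, by comparison; points are arrays, coloured by day length. The 4 FWA arrays sit between 1.64 and 2.34, and all other arrays lie between -0.33 and 0.54.

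Besides AT3G32240, 1 probe of the ranges was called in FWA, and 18 of the 232 had an unadjusted p under 0.05. The called probe belongs to AT2G07000, which is annotated as protein-coding: its log2 ratios were -0.81 and -0.67 at 8 h and -0.49 and -0.45 at 16 h. It fell to -0.61 ± 0.15 with an adjusted p of 0.048 from limma, and its difference from the other 12 lines, -0.30 ± 0.15, was not called (adjusted p 0.6). The same probe fell in FD, to -0.77 ± 0.15 with an adjusted p of 0.0014, a call kept in 2 of the 4 fits without 1 FD array. The FWA call of AT2G07000 was kept in 1 of the 4 fits that each left out 1 array of FWA. Of the 40 pseudogenes in the ranges 1 was called in FWA (2.50%), and their median log2 ratio was -0.02. The count in FWA rose without FWA_16h replicate 1, and so did the share of other named probes called. Both fell without each of the other 3 arrays in turn.

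In FCAVRN2_16h, the comparison of the FCA and VRN2 double mutant with FCA under 16 h, 17 probes of the ranges rose (3.26% of all probes did) and 12 fell (4.59%). Pseudogenes were called most often: 11 of the 40 in the ranges (27.5%), 8 of them higher, beside 18 of the 192 other probes of the ranges (9.38%) and 7 of the 51 pseudogenes elsewhere (13.7%). By chromosome, 12 of 45 probes were called on chromosome 5, 8 of 59 on chromosome 2, 4 of 50 on chromosome 3, 4 of 51 on chromosome 4 and 1 of 27 on chromosome 1. Of the 118 probes at least 1000 locus numbers inside the edges 20 were called (16.9%).

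The 2 largest rises were those of pseudogenes, and the next was that of the protein-coding AT5G29210. AT4G07425 had log2 ratios of 0.92 on replicate 1 and 2.59 on replicate 2 of FCAVRN2_16h, against -0.71 and -0.01 in FCAVRN2_8h. Its fitted rise was 1.75 ± 0.53, or 3.37-fold, with an adjusted p of 0.0369 from limma. AT5G34970 had 0.45 and 2.30, a rise of 1.38 ± 0.43 (adjusted p 0.0412). In both genes the replicates lay far apart, and both lay above the 8 h arrays. AT2G14640, with 0.33 and 1.20, rose by 0.76 ± 0.22. AT4G04245 had 0.07 and 1.01, and AT2G07700 had -0.07 and 1.12, so that replicate 2 alone was high in these 2 pseudogenes. AT4G08100 had 0.50 and 0.42, the replicates close together, and rose by 0.46 ± 0.12 (adjusted p 0.018). AT5G33380 and AT5G29030 were higher on replicate 1, at 0.70 and 0.67, than on replicate 2, at 0.08 and 0.10.

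Protein-coding genes of the ranges also rose. AT5G29210 had 0.45 and 1.28 and rose by 0.87 ± 0.17 (adjusted p 0.00386 from limma). AT4G08510 had 0.65 and 0.77, against 0.00 and 0.57 at 8 h, and rose by 0.71 ± 0.19 (adjusted p 0.0175). Its other probe stood at -0.18 ± 0.08 and was not called. SAP (STERILE APETALA), a regulator of flower and organ growth, had 0.67 and 0.35 on the 16 h arrays and -0.19 and 0.07 on the 8 h arrays. It rose by 0.51 ± 0.14 (adjusted p 0.0211), and stood at -0.05 ± 0.10 in FCA and at -0.03 ± 0.10 in FWA. AT5G30495 rose by 0.48 ± 0.11, AT2G14390 by 0.56 ± 0.13 and AT5G32440 by 0.53 ± 0.14, each with both arrays above 0 and above both 8 h arrays. A second AT5G32440 probe, at 0.27 ± 0.13, was not called. AT3G31430 had -0.02 and 0.90. AT1G36050 and AT3G29010 made up the 17, with rises of 0.35 and 0.28.

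Of the 12 probes that fell, AT5G35160 fell farthest, with -0.52 and -1.47 on the 16 h arrays and 0.33 and 0.00 on the 8 h arrays. Its fitted value was -0.995 ± 0.24 (adjusted p 0.0106 from limma). AT2G10940 stood at -0.77 and -0.88 under 16 h and at 0.39 and 1.17 under 8 h, and its fitted value at 16 h was -0.82 ± 0.26 (adjusted p 0.0425). The 2 further AT2G10940 probes, at -0.05 and 0.26, passed no test. AT5G35460 had -0.37 and -1.05 and fell to -0.71 ± 0.13 (adjusted p 0.00311), and AT5G35730 had -0.52 and -0.69 and fell to -0.60 ± 0.12 (adjusted p 0.00386). The pseudogene AT2G13970 (-0.36 and -1.19) and AT5G32450 (-0.20 and -1.33) were lower on replicate 2, but a second AT2G13970 probe stood at 0.00 ± 0.10. AT2G06500 (-0.55 and -0.31), AT5G32470 (-0.30 and -0.29) and the pseudogene AT2G13320 (-0.32 and -0.20) fell with the replicates closer together. AT3G33530, AT2G13440 and the pseudogene AT3G30170 were the others, and the last had -0.68 on replicate 1 and 0.03 on replicate 2.

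**Figure D3:**
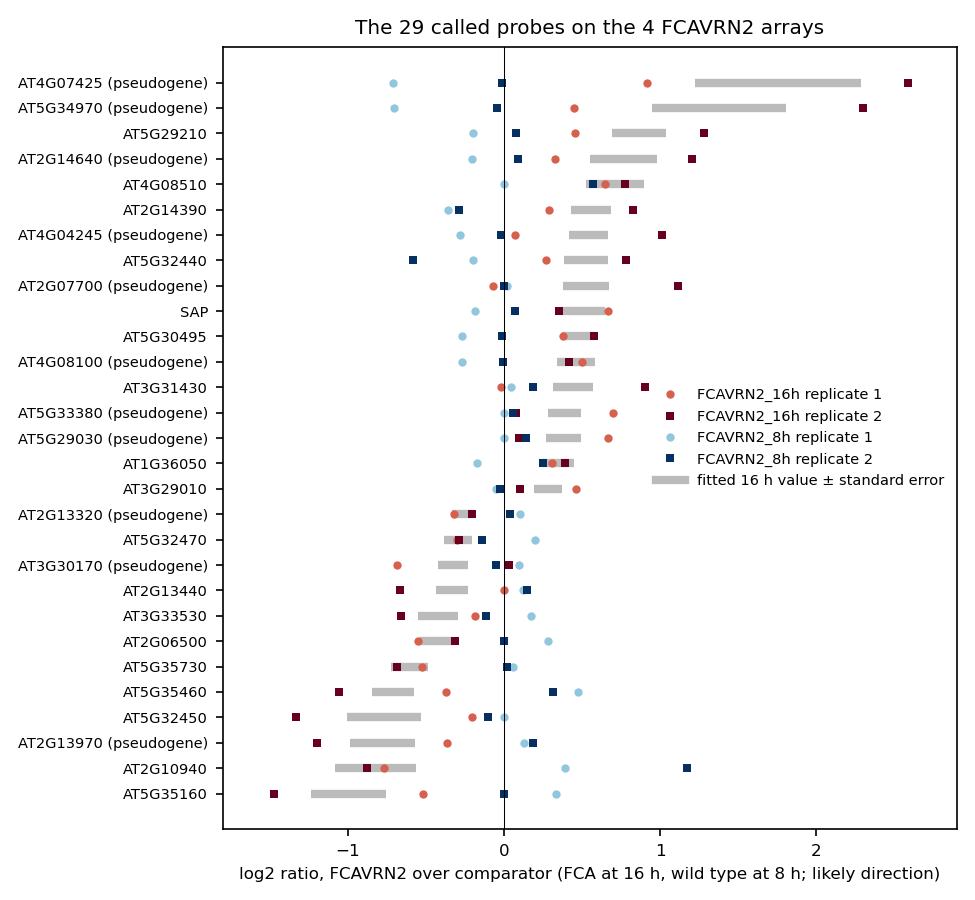
Log2 ratios of the 29 probes called in FCAVRN2_16h on the 2 arrays at 16 h (comparator FCA) and the 2 arrays at 8 h (comparator wild type); grey bars are the fitted 16 h value ± 1 standard error. On 20 of the 29 probes replicate 2 lies farther from 0 than replicate 1. For 25 of the 29 both 16 h points lie beyond both 8 h points in the direction of the call. The 29 were chosen by the 16 h arrays and no share over all probes is given, so this is not a test.

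None of the 29 calls was kept both without replicate 1 and without replicate 2 of FCAVRN2_16h. Without replicate 1 the fit kept 18 of them, and without replicate 2 it kept 3 others, AT5G33380, AT3G30170 and AT3G29010. The remaining 8 were lost without either array, among them SAP (adjusted p up to 0.181 from limma), AT4G08100, AT5G29030, AT2G06500, AT2G10940, AT5G32470 and AT2G13320. On replicate 2, 2.53% of all ratios lay beyond 2-fold, and 16 of the 232 probes did (6.90%). Replicate 2 is the dye-swapped array of this group, so replicate and dye orientation cannot be told apart in these values. Both arrays had the same sign for 25 of the 29 probes, and replicate 2 was the farther from 0 for 20. Over the 232 probes the 2 arrays correlated at 0.308, over the other named probes at 0.215. Without replicate 2, 4 of the 232 were called (1.72%, with 1.98% of other named probes), and without replicate 1, 41 were (17.7% with 11.5%). With the arrays scaled to the same width, with quantile normalization, with array weights or with the 4 FCAVRN2 arrays fitted on their own, 0 were called.

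Under 8 h against wild type, FCAVRN2 called 0 of the 232 probes by limma (0.00723% of all probes), and 14 had an unadjusted p under 0.05. The 17 probes that rose at 16 h had a median log2 ratio of -0.06 at 8 h, and the 12 that fell had 0.10. For 25 of the 29, both 16 h values lay beyond both 8 h values in the direction of the call. The 29 were chosen by the 16 h arrays and no share over all probes is given, so this is not a test. The difference between both groups was called for 9 of the 232 (1.14% of all probes). It was largest for AT2G10940, at -1.60 ± 0.36, and AT5G35460, at -1.10 ± 0.19 (adjusted p 0.0104 from limma). The AT2G10940 value is that of 1 of 3 probes, whose r with the other two was 0.359 and -0.486, and averaged over the 3 the difference was -0.43 ± 0.17 (adjusted p 0.166). Without FCAVRN2_16h replicate 2 none of the 9 was called, and AT5G29210 went from 0.93 to 0.40, AT4G04245 from 0.69 to 0.20 and AT5G35460 from -1.10 to -0.69. Without FCAVRN2_8h replicate 1 none was called either, and without FCAVRN2_16h replicate 1 8 were. Light and comparator both differ between these groups and cannot be told apart. FCAVRN2_8h minus FCA_8h called 0 probes of the ranges and 0% of all probes, with 19 of the 232 at an unadjusted p under 0.05.

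The same 29 probes stayed near 0 in FWA, where the 17 that rose in FCAVRN2_16h had a median of -0.01 (-0.40 to 0.25) and the 12 that fell had -0.02 (-0.21 to 0.05). None was called in FWA, where 0.543% of all probes were. In FCA itself, the comparator at 16 h, the medians were 0.03 and -0.03, and none was called (0.0723% of all probes). Outside FCAVRN2_16h, 2 of the 29 were called anywhere: AT4G08510 fell in FD (5.85% of all probes called) and AT5G32440 rose in FY (1.82%). In FCAVRN1_vs_WT the medians were 0.15 (-0.18 to 1.18) and -0.16 (-0.45 to 0.21), none called (0.0145% of all probes). The 29 were chosen by their values in FCAVRN2_16h, so smaller values elsewhere are not a test.

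Across all 64 arrays a group of pseudogenes moved together. With the mean of the arrays of the same dye orientation subtracted, 7 other probes had a Pearson r of at least 0.8 with the pseudogene AT2G07770: AT5G34970 (0.935), AT4G07425 (0.903), AT2G14570 (0.880), AT5G35880 (0.854), AT2G12610 (0.854), AT2G14640 (0.839) and AT2G11620 (0.825). They lie on chromosomes 2, 4 and 5, and all 8 but the protein-coding AT2G11620 are pseudogenes. Without the 2 arrays on which AT2G07770 lay farthest from its median the r values ran from 0.757 to 0.917. Spearman's rho ran from 0.797 to 0.914 over all arrays. The points share hybridizations, and the labels do not say whether they share comparator RNA. The r values were read from the same arrays that picked the group, so they are a description.

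All 8 were highest on FCAVRN2_16h replicate 2, between 0.85 (AT2G12610) and 2.59 (AT4G07425), where replicate 1 of the same group had 0.00 for AT2G07770 and 0.92 for AT4G07425. The next highest array by their median was FWA_16h replicate 1, at 0.73, and its partner FWA_16h replicate 2 had 0.04. The lowest was FLC20_8h replicate 2, at -1.49, which was the lowest array for 6 of the 8. In both groups the replicates lay far apart. The group was not peculiar to the centromeric ranges: 15 named probes outside them, 5 of them pseudogenes, and 14 unnamed probes also reached r of 0.8 with AT2G07770, led by AT2G05350 (0.927) and AT4G13440 (0.913).

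**Figure D4:**
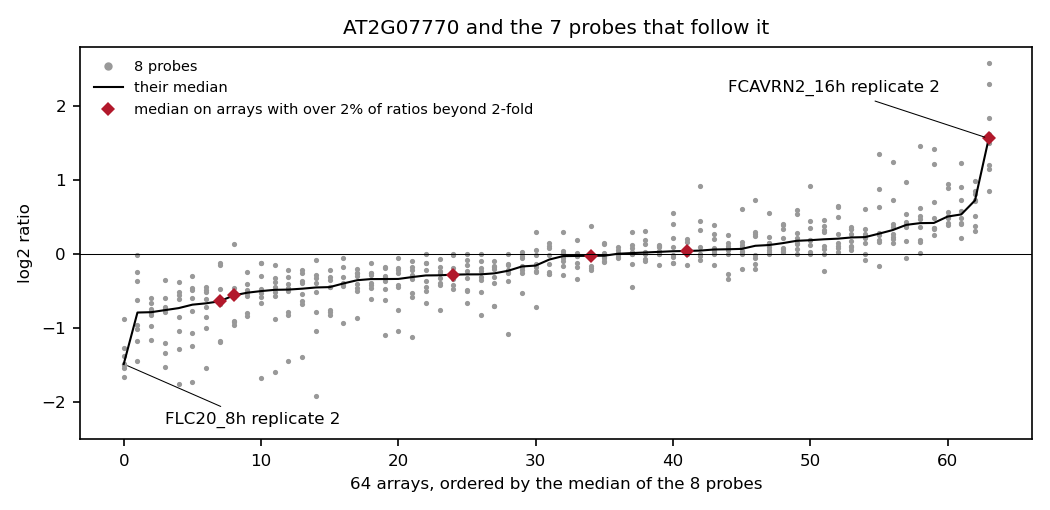
Log2 ratios of AT2G07770 and the 7 probes that follow it (grey) on the 64 arrays, ordered by their median (line); red diamonds mark the 6 arrays with over 2% of ratios beyond 2-fold. The median runs from -1.49 on FLC20_8h replicate 2 to 1.56 on FCAVRN2_16h replicate 2, and the 5 other wide arrays lie between -0.64 and 0.04, below 22 of the arrays.

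The same probes were among the most variable of the ranges. The SD over the arrays was 0.922 for AT4G07425, 0.717 for AT5G34970, 0.553 for AT5G35880 and 0.515 for AT2G07770, the 4 highest, followed by AT3G32240 at 0.492. The median SD was 0.183 over the 232 probes and 0.182 over the other named probes. An SD over 0.5 was reached by 4 of the 40 pseudogenes in the ranges, by 0 of the 192 other probes there, by 3 of the 51 pseudogenes elsewhere and by 0.769% of the other named probes. Most genes of the ranges did not follow each other: over 26765 pairs of probes of different genes the median r was 0.0095, and 38 pairs reached 0.8, 19 of them between pseudogenes. A second set of protein-coding genes held much of the rest, such as AT1G36310 with AT1G36060 (0.865) and AT4G08170 with AT1G36640 (0.857). Both probes of AT1G36310 had r of -0.614 with each other, and both of AT4G08170 had 0.232. Neither of these pairs reached 0.8 with the other probe of that gene.

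In FLC20, compared with C24, 6 probes of the ranges rose (4.3% of all probes did) and 10 fell (1.79%). AT3G43310 had 0.40 and 0.64 at 8 h and 1.496 and 0.30 at 16 h, and rose by 0.71 ± 0.14 (adjusted p 0.00198 from limma). AT1G43690 had 0.86, 0.49, 0.31 and 0.47 in the same order and rose by 0.53 ± 0.11 (adjusted p 0.00203). AT4G06744 rose by 0.40 ± 0.11. Without FLC20_16h replicate 1, AT3G43310 stood at 0.36 (adjusted p 0.135), and its call was kept in the 3 other fits that left out 1 array. AT1G43690 kept its call in 2 of 4 such fits and AT4G06744 in 1 of 4. These 3 also differed from the average of the 13 lines with a wild type comparator, by 0.70, 0.47 and 0.46, all called, where 2.35% of all probes were. FLC20 differs from these lines in comparator and in age, which cannot be told apart from the line. With 1 FLC20 array left out the calls of these differences were kept in 2, 2 and 1 of 4 fits, and the AT3G43310 difference was 0.35 without FLC20_16h replicate 1.

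The 3 largest falls in FLC20 were pseudogenes of the group around AT2G07770. AT2G07770 itself had -0.52 and -1.501 at 8 h and -0.34 and -0.79 at 16 h, a fall to -0.79 ± 0.22 (adjusted p 0.0277 from limma). AT2G12610 (-0.63 ± 0.17) and AT2G14570 (-0.61 ± 0.17) were lowest on the same array, FLC20_8h replicate 2, at -1.48 and -1.49. All 3 lost their call in the fit without that array, and also in the fit without FLC20_16h replicate 2. Both probes of RALFL27, which encodes a peptide related to the growth signal RALF, fell, at -0.57 ± 0.15 and -0.50 ± 0.14. MAK10, a subunit of a protein N-acetyltransferase, fell to -0.37 ± 0.11 with 3 of 4 arrays below 0. AT4G07390 fell to -0.53 ± 0.09 (adjusted p 0.000149) with -0.72 and -0.69 at 8 h and -0.02 and -0.69 at 16 h, and its difference from the 13 lines, -0.48 ± 0.09, was called, and in 2 of 4 fits with 1 array left out. The count in FLC20 fell most without FLC20_8h replicate 1 and without FLC20_16h replicate 2, and so did the share of other named probes called. The count was 4 (3 higher) with arrays scaled to the same width and 3 (2 higher) with quantile normalization.

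In FD, 3 probes of the ranges rose (2.79% of all probes did) and 8 fell (3.06%), all of protein-coding genes. FD encodes a transcription factor that acts with FT at the shoot tip. AT4G08510 had -0.33 and -0.11 at 8 h and -0.89 and -1.73 at 16 h and fell to -0.76 ± 0.13 (adjusted p 0.000428 from limma). The call was kept without each of the 4 arrays in turn. Its difference from the other lines, -0.56 ± 0.14, was called (0.644% of all probes), but in none of the 4 fits with 1 array left out, and its second probe stood at 0.06 ± 0.06. AT3G43110 fell to -0.57 ± 0.14, with values from -0.78 to -0.15, and its call was kept in 1 of 4 such fits. AT4G08850 rose by 0.42 ± 0.11, with values from 0.24 to 0.55, and its second probe, at 0.31 ± 0.15, was not called. That call of AT4G08850 too was kept in 1 of 4 such fits. SAPX, the ascorbate peroxidase of the chloroplast stroma, had 0.08 and -0.09 at 8 h and 0.53 and 0.78 at 16 h. It rose by 0.32 ± 0.08 (adjusted p 0.0127), and its difference from the other lines, 0.36 ± 0.08, was called, but in none of those 4 fits. CSLC12, a cellulose synthase-like protein, fell to -0.25 ± 0.07. The count in FD fell without each of the 4 arrays in turn, and so did the share of other named probes called. Both fell most without FD_8h replicate 1 and without FD_16h replicate 2.

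In GI, whose protein links the circadian clock to flowering, all 3 called probes of the ranges fell. The 2 arrays at 16 h carry the same replicate number and were averaged, so a fit without either of them still holds that replicate. ALN, the allantoinase that breaks down a purine product and so frees nitrogen, had -0.36 and -0.33 at 8 h and -0.60 and -0.72 at 16 h. It fell to -0.51 ± 0.11 (adjusted p 0.0133 from limma), a call kept without each array in turn. AT5G36260 fell to -0.42 ± 0.09 and AT1G36980 to -0.41 ± 0.11, with all 4 arrays below 0 for each. Their calls were kept in 4 of 4 and in 2 of 4 such fits. The count rose without GI_8h replicate 2, without GI_8h replicate 1 and without the unswapped GI_16h array. So did the share of other named probes called. With scaled arrays, quantile normalization or array weights the count was 0.

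In FY, named for a factor of RNA 3' end formation that works with FCA, a probe of a nuclear gene for a chloroplast protein fell. ATPC1, the gamma subunit of the chloroplast ATP synthase, had -0.59 and -0.98 at 8 h and -0.59 and -0.43 at 16 h in FY. It fell to -0.65 ± 0.11 (1.56-fold, adjusted p 0.00156 from limma), and its difference from the other lines, -0.55 ± 0.11, was called (0.0362% of all probes). The fall kept its call in 3 of 4 fits with 1 array left out (adjusted p up to 0.0785), and the difference in 2 of 4. The second ATPC1 probe stood at 0.01 ± 0.08 in FY, and both probes had r of 0.004 over the 64 arrays, so the fall rests on 1 probe. AT3G29240 fell to -0.56 ± 0.14, with all 4 arrays between -0.64 and -0.43, but its call was kept in none of those 4 fits (adjusted p up to 0.204). A probe of AT5G32440 rose by 0.37 ± 0.10 with 3 of 4 arrays above 0. The second probes, at -0.17 ± 0.09 for AT3G29240 and 0.01 ± 0.09 for AT5G32440, were not called. The count in FY fell without FY_16h replicate 1 and without FY_8h replicate 2, and so did the share of other named probes called.

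Day length called probes of the ranges in GAI only, a line named for a repressor of gibberellin responses, with 2 of 232 (0.13% of all probes). The probe of ATPC1 that fell in FY had 0.80 and -0.02 at 8 h and -0.49 and -0.72 at 16 h, a difference of -0.997 ± 0.21 (adjusted p 0.0353 from limma). MSRB5, a methionine sulfoxide reductase that repairs oxidised proteins, had -1.01 and -0.46 at 8 h and 0.16 and 0.71 at 16 h, a difference of 1.17 ± 0.25 (adjusted p 0.0449). The groups, of 2 arrays each, do not overlap for either. This same contrast picked both probes and no share over all probes is given, so that adds no support. The second probes, at 0.19 ± 0.16 for ATPC1 and 0.43 ± 0.15 for MSRB5, were not called. GAI_8h replicate 1 holds the value farthest from 0 of both, and 5.14% of its ratios lay beyond 2-fold. Without it ATPC1 differed by -0.53 and MSRB5 by 0.86, each with an adjusted p of 0.999. Both calls were kept in 1 of 4 fits with 1 array left out, and in 1 of the 11 other alternatives run. In the other 13 lines, with FVE grouped by title, 16 h minus 8 h called at most 0.0145% of all probes and 0 of the 232.

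Different probes of a gene often disagreed. The 31 pairs of probes of 27 genes had r over the arrays between -0.614 and 0.84, with a median of 0.272, and 8 pairs lay below 0. RALFL27 gave the highest value, AT1G36310 the lowest, and AT4G08510 gave -0.336.

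Lists of genes by role were thinly covered. Of photosynthesis and photorespiration 2 of 10 genes had a probe, of stress and defence 2 of 13, of primary metabolism 3 of 17, of hormone and development 2 of 11 and of ribosome, ubiquitin and RNA 0 of 11. Over the 18 comparisons these lists held 3 calls, ATPC1 in FY, AT4G08850 in FD and SAP in FCAVRN2_16h, which were kept in 3 of 4, 1 of 4 and 0 of 2 fits with 1 array left out. In the same order the lists have 3, 3, 4, 2 and 0 probes. Of the values of all probes in the 18 comparisons 1.35% were called, so no excess is read from these calls. Just short of a call in FCAVRN2_16h were AT3G43670 (-0.33 ± 0.11, adjusted p 0.0504 from limma), AT5G36790 (-0.58 ± 0.20, adjusted p 0.0596) and EXO (-0.36 ± 0.12, adjusted p 0.0641), a cell wall protein that promotes growth. AT5G36160 stood at 0.29 ± 0.10 in FLC20, AT3G32980 at -0.38 ± 0.14 in GAI and ACS, an acetyl-CoA synthetase, at -0.19 ± 0.09 in GAI, none called. Of the 24 genes listed for DNA methylation and silencing, 2 had a named probe, AT1G06760 (0.20 ± 0.09 in FLC20, its lowest adjusted p at 0.147) and AT2G30620 (0.28 ± 0.09 in FPA, 0.172), and none of the 13 Polycomb and vernalization genes had one. FWA and VRN2 are among those without a named probe. In the copy of the mitochondrial genome on chromosome 2, AT2G07700, AT2G07760 and AT2G07770 had a probe each, and AT2G07760 was called nowhere, with its lowest adjusted p, 0.415, in FLC20 at -0.09 ± 0.06.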

How the data were processed

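Per the labels, the authors compared line and comparator RNA on arrays with 2 channels and applied a spatial normalization. They deposited linear ratios of both channels. The titles name GenePix scanner files. Dyes, background correction, spot filters and whether swapped ratios were turned are not stated there. After the mean of the arrays of 1 orientation was subtracted, the 2 arrays correlated positively in 22 of 32 groups and negatively in 10, and the deposited ratios were read as running the same way on all arrays.

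From these, log2 ratios were computed and fitted with limma 3.58.1 in R 4.3.3 in 1 model over all 64 arrays, with group means and dye orientation, and 5.17 prior degrees of freedom beside 28 to 30 residual ones. Of 884736 ratios 146 were missing. Ratios of exactly 1 made up 10.3% (FY_8h replicate 2) to 11.6% (FWA_8h replicate 1) of an array, and 11.2% for the probes of the ranges. With these set to missing, the sum of calls over the 18 comparisons was 63 in place of 64. Probes needed values on 48 arrays, which removed 0. The dye term was called for 3373 of the 13824 probes. The 2 GI_16h arrays, both numbered biological replicate 1, were averaged. Each line is the mean of its 8 h and 16 h groups. FVE at 16 h was grouped by title, since its descriptions say short days, and the FCAVRN1 titles and descriptions give opposite day lengths, so none was used. The p-values are two-sided and adjusted within each contrast over 13824 probes, and errors are limma's standard errors. The model was tested on simulated data in which a probe had the same spread on all arrays. That simulation does not cover the wide arrays. Samples were numbered as biological replicates by the labels. The labels do not say whether arrays shared comparator RNA.

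Gene names came from the platform annotation, brought up to date with RefSeq's table of TAIR10.1 genes (6322 of 6341 named probes matched). No coordinates were used. Named genes are up to 15 rises and 15 falls in FWA and FCAVRN2, up to 3 of each with the same sign on all arrays in other comparisons, up to 2 per day length difference, up to 4 per list, and AT3G32240. RALFL27, MAK10, SAPX, CSLC12, AT4G07390, AT1G36050, AT3G29010, a probe of AT5G32440 in FY, AT2G05350, AT4G13440 and the group around AT2G07770 were named after their values were seen. The genes, lists and tests were chosen with earlier results of these data known. Alternatives covered normalization, array weights, the dye term, a replicate block, missing values, narrower ranges and single arrays left out. The contrast of both FCAVRN2 groups, the fits without the widest arrays and those without the group around AT2G07770 were added after seeing the data.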

Additional observations from a re-analysis of the deposited data

Results flagged for a closer look

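Each group holds 2 arrays, so single arrays were not tested as outliers. What follows are differences between lines, between day lengths or between the FCAVRN2 groups that were called by limma at an adjusted p under 0.05, as log2 differences.

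AT3G32240 differed by 1.94 between FWA and the average of the 12 other lines with a wild type comparator, and by 1.86 between FWA and both FCAVRN2 groups. From the other 12 lines FD differed at AT4G08510 by -0.56, at 1 probe of AT5G32440 (SP0000124194) by -0.40 and at SAPX by 0.36, and FY differed at ATPC1 by -0.55. From the mean of the 13 lines FLC20 differed at AT4G07390 by -0.48, at the pseudogene AT3G43690 by 0.37, at AT1G43690 by 0.47, at AT3G43310 by 0.70, at AT5G35090 by -0.33 and at AT4G06744 by 0.46. FLC20 had C24 as its comparator, and was sampled at 9 days in place of 12, so line, comparator and age cannot be told apart there. With each array of the line left out in turn, the AT3G32240 differences were called in 4 of 4 fits, the 3 of FD in none, that of ATPC1 in FY in 2 and the 6 of FLC20 in 1 or 2.

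Between 16 h and 8 h in GAI, ATPC1 differed by -0.997 and MSRB5 by 1.17. Between FCAVRN2_16h and FCAVRN2_8h, the differences were -0.64 at AT5G35730, 0.93 at AT5G29210, 0.69 at AT4G04245, -0.57 at AT2G06500 and 0.88 at AT2G14390. They were 0.62 at AT5G30495, 0.91 at the other probe of AT5G32440 (SP0000124223), -1.60 at AT2G10940 and -1.10 at AT5G35460. The AT2G10940 value is that of 1 of 3 probes, and averaged over the 3 the difference was -0.43 and not called (adjusted p 0.166 from limma). None of the 9 differences was called without the wide array FCAVRN2_16h replicate 2 or without FCAVRN2_8h replicate 1, 1 was without FCAVRN2_8h replicate 2 and 8 were without FCAVRN2_16h replicate 1. In GAI both calls were lost without 3 of the 4 arrays, GAI_8h replicate 1 among them.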

How the results depend on the processing

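AT3G32240 in FWA kept its call under the alternatives run except 2: with the FWA arrays fitted alone it was 1.93 and not called, and with the sign turned on swapped arrays it was -0.21. Leaving out 1 FWA array gave 1.76 to 2.09. The counts of called probes moved far more, and the cause was not tested unless stated. In FCAVRN2_16h (29) the count was 0 with array weights, with arrays scaled to 1 median absolute deviation, with quantile normalization and with the 4 FCAVRN2 arrays alone, 18 with no dye term, 3 with the sign turned, and 10 without the 6 widest arrays. Leaving out 1 array gave 4 to 41, and the probes following AT2G07770 removed, 26. In FLC20 (16) it was 4 scaled, 3 with quantile normalization, 7 with the replicate block, 0 alone, 0 with the sign turned, 8 in narrower ranges, 9 without the widest arrays and 3 to 15 with 1 array left out. In FD (11) it was 21 alone, 0 with the sign turned, 6 in narrower ranges and 2 to 8 with 1 array left out. In FWA (2) it was 1 with array weights, no dye term, quantile normalization, the replicate block and without the widest arrays, 0 alone, 0 with the sign turned, and 1 to 11 with 1 array left out. In GI (3) it was 0 with array weights, scaling, quantile normalization or the sign turned, 1 in narrower ranges, 11 without the widest arrays and 2 to 15 with 1 array left out. In FY (3) it was 8 with array weights, 6 with the replicate block, 6 without the widest arrays, 1 in narrower ranges, 0 alone, 0 with the sign turned and 0 to 3 with 1 array left out. Fewer probes lie in narrower ranges, which lowers counts by construction. Counts with an array left out are given here without the share over all probes, so they show spread only.

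Comparisons with 0 calls gained 1 in CO (array weights), in FCA (array weights, scaling, quantile normalization), in FE (array weights, its arrays alone, scaling, quantile normalization, without the widest arrays), in FCAVRN1_vs_FCA (scaling, ratios of exactly 1 set to missing) and in FT (sign turned). With 1 array left out GAI had 0 to 10, FPA 0 to 4, FVE 0 to 3, FCAVRN1_vs_WT 0 to 3, FCA 0 to 1 and FCAVRN1_vs_FCA 1 to 1. In FCAVRN1 and FCAVRN2 the lone array left was assumed to vary like the other groups. The sum (64) was 40 with array weights, 23 scaled, 38 in narrower ranges, 16 with quantile normalization and 4 with the sign turned. The GI arrays could not be fitted alone. Equal replicate numbers did not mark pairs (median r of residuals 0.0288 over 450 pairs, lowest -0.653), and the sum with the replicate block was 66.

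The day length calls of ATPC1 and MSRB5 in GAI were kept with only the probes that had a value on all arrays, and lost under the 10 other settings that left out no single array, with an adjusted p of at least 0.052 (ATPC1 -0.41 with the probes of a gene averaged). The fits that left out 1 array for differences between groups were chosen after seeing the data.

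With the sign turned on swapped arrays, 27 named values besides AT3G32240 changed sign and 18 kept it without a call. The former were in FD AT4G08850 -0.025, AT2G07000 0.36, AT4G08510 0.27 and AT3G43110 0.15, in GI AT1G36980 0.092, and in FLC20 AT3G43310 -0.24, AT1G43690 -0.055 and AT4G06744 -0.064. In FCAVRN2_16h rises turned to -0.83 (AT4G07425), -0.93 (AT5G34970), -0.41 (AT5G29210), -0.44 (AT2G14640), -0.062 (AT4G08510), -0.27 (AT2G14390), -0.47 (AT4G04245), -0.26 (AT5G32440), -0.59 (AT2G07700), -0.10 (AT5G30495) and -0.46 (AT3G31430). Falls turned to 0.48 (AT5G35160), 0.056 (AT2G10940), 0.42 (AT2G13970), 0.57 (AT5G32450), 0.34 (AT5G35460), 0.082 (AT5G35730), 0.24 (AT3G33530) and 0.33 (AT2G13440). With 1 array of FCAVRN2_16h left out AT2G07700 ran from -0.020 (without replicate 2) to 1.07, and it was -0.037 without the widest arrays, and AT3G31430 was -0.021 without the widest arrays. The number of arrays, 2 a group, limits the precision, and signal over background is unknown.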
